A study of Mus musculus with 6 samples.

Results

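Transcript signals of genes that mark the trophoblast lineage were compared between mouse embryos grown in narrow and in wide cavities. The list held 9 genes, Elf5, Cdx2, Tfap2c, Sox21, Ets2, Ascl2, Hand1, Gcm1 and Plac1. They were chosen by name, with earlier results of these data known. A gene was taken from the row of the array table that named it alone, or from the brightest such row on average where there were several. Of the 9 genes, 8 had such a row, with 1 row each, among 19938 genes in all, and Gcm1 was not analysed here. Outbred CD1 embryos were taken at embryonic day 5.0 and kept for 8 hours in cavities of 90 µm (narrow) or 180 µm (wide) diameter. Total RNA of 30 whole embryos per pool was hybridised to an Affymetrix mouse gene array, with 3 pools in narrow and 3 in wide cavities. The series asked how embryos differ when cultured with or without external mechanical cues. Because whole embryos were pooled, a smaller share of trophoblast cells and less RNA per trophoblast cell cannot be told apart.

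The trophoblast is the first lineage set aside in the mouse embryo and forms the fetal part of the placenta. Soon after implantation its stem cells lie in the extraembryonic ectoderm, next to the epiblast, where FGF and Nodal signals from the epiblast keep them dividing. Cdx2, Elf5, Eomes and Tfap2c are transcription factors of these stem cells, Sox21 and Ets2 act in the same compartment, Ascl2 belongs to the ectoplacental cone and spongiotrophoblast, Hand1 drives giant cell differentiation, and Gcm1 directs syncytiotrophoblast formation. Plac1 is an X-linked gene of the placenta.

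Upstream sequences of 3 members are shown first. Elf5 and Cdx2 are printed as the factors that define the stem cell state, and Ascl2 as the member whose pools spread furthest. RefSeq windows were found for 7 of the 9 genes, and each sequence holds the 250 bases before a listed transcription start, 5′ to 3′ on the strand of the gene. Capitals mark matches, on either strand, to CANNTG (the E-box read by bHLH proteins such as Ascl2 and Hand1), GCCNNNGGC (AP-2 proteins such as Tfap2c), CCGGAA (ETS proteins such as Elf5 and Ets2), TTTATG (CDX proteins) or ATTGTT (SOX proteins).
Elf5, first listed start (GRCm38.p6, chr2:103411848-103412097, plus strand): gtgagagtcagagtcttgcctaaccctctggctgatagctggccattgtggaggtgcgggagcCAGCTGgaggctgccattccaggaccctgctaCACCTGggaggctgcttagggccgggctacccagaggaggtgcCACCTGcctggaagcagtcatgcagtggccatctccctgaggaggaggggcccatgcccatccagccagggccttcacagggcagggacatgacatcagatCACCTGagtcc
Elf5, the other listed start (GRCm38.p6, chr2:103423818-103424067, plus strand): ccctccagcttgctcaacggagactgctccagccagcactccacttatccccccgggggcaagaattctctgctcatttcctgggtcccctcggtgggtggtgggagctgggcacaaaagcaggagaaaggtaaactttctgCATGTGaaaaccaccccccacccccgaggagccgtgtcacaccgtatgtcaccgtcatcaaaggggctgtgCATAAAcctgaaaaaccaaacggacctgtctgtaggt
Cdx2 (GRCm38.p6, chr5:147307250-147307499, minus strand): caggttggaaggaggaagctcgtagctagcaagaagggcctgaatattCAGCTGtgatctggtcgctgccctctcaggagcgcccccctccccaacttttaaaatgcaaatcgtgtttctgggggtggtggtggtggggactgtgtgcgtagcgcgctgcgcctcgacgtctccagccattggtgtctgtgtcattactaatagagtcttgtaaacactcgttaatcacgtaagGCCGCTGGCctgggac
Ascl2 (GRCm38.p6, chr7:142969265-142969514, minus strand): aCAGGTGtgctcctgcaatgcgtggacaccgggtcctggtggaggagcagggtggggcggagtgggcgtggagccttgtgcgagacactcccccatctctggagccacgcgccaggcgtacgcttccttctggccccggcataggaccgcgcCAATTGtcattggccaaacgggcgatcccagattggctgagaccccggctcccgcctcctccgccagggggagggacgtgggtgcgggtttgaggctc

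The first Elf5 window held 4 E-box matches and no other match, whereas the other Elf5 window held 1 E-box and 1 CDX match. The Cdx2 window held 1 E-box and 1 AP-2 match, with GCCGCTGGC as the AP-2 letters, and the Ascl2 window held 2 E-box matches. Such matches are common: of 32851 RefSeq windows of the same length, 66.2% held an E-box, 13.7% the AP-2 letters, 12% the ETS letters, 10.8% the CDX letters and 9.42% the SOX letters. A match describes the letters only. The array had 1 row for Elf5, so the transcripts from its 2 listed starts were not separated. Windows differed in base composition, with 2 CG pairs in the first Elf5 window and 8 in the other, 13 in the Cdx2 window and 19 in the Ascl2 window.

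All 8 measured genes gave bright signals in every pool. The deposited values are log2 signals, and the sources used here gave no measure of background. Olfactory receptor genes, which encode receptors of sensory neurons, served as a rough stand-in. The mean signal of each of the 8 members lay above those of 100% of 1027 olfactory receptor genes. This was not particular to the members, as it held for every gene from Foxa2, at the 65.1st percentile of mean signal over all genes, upward. Probes differ in how well they bind, so signals of the members were not ranked against each other. Array medians ranged from 7.62 to 7.67, and the lowest correlation between any pair of arrays over all genes, which are not independent replicates, was 0.998. The arrays numbered 1 stood apart from the other 4 on the first principal component (-10.6 for narrow 1 and -8.01 for wide 1, with the others between 2.76 and 5.87).

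None of the 8 genes passed the test between cavities. Differences (narrow minus wide, log2) were tested with limma and adjusted by the Benjamini-Hochberg method over 19938 genes. Of the 8 members, 0 were past an adjusted p of 0.05, as were 0% of all genes (0 of 19938), and each member had an adjusted p of 1.00. At an unadjusted p under 0.05, limma gave 0 of the 8 members, against 3.40% of all genes (1.68% higher and 1.72% lower in narrow pools). Of the differences 5 were positive and 3 negative, their median was 0.036, and the median of all genes was 0.0011. The 95% interval of each of the 8 differences included 0. Over the 7 members other than Ascl2, the bounds ran from -0.23 for Cdx2 to 0.20 for Tfap2c, that is from 0.853-fold to 1.15-fold. Each interval is unadjusted and comes from the main fit. It concerns the signal of whole-embryo pools and does not bound a change within trophoblast cells.

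**Figure D1:**
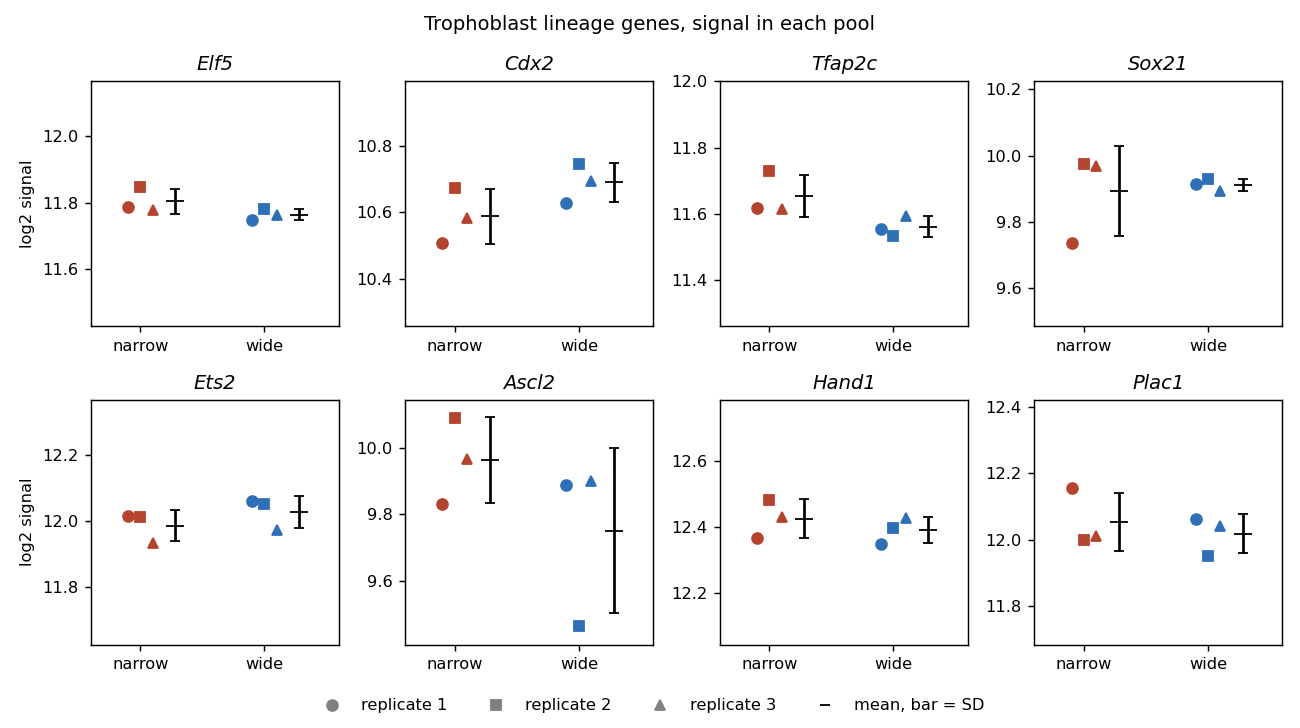
Log2 signal (vertical axes, each spanning the same height) of the 8 measured trophoblast lineage genes in the 3 narrow and 3 wide pools; the marker shape gives the replicate number and the black bar the mean and SD. Tfap2c is the gene whose groups do not touch, and Ascl2 is low in wide 2 (9.46).

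Among the stem cell factors, Elf5, an ETS factor that holds cells in the trophoblast fate, was the steadiest member. Its signals were 11.79, 11.85 and 11.78 in narrow pools 1, 2 and 3, against 11.75, 11.78 and 11.76 in wide pools 1, 2 and 3. Narrow 2 was the highest and the groups overlapped. The means were 11.80 ± 0.04 in narrow and 11.76 ± 0.02 in wide pools (SD, n = 3 each), a difference of 0.040 ± 0.041 (SE) with a 95% interval from -0.053 to 0.13 (limma, unadjusted p = 0.347). The highest and the lowest of the 6 pools differed by 7.20% on the linear scale.

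Cdx2, the caudal-type homeobox factor that starts the trophoblast programme, was the member with the most negative difference. It read 10.51, 10.67 and 10.58 in narrow pools 1, 2 and 3, against 10.63, 10.75 and 10.70 in wide pools. Narrow 1 and narrow 3 lay below all wide pools, while narrow 2 lay between wide 1 and wide 3, so the groups overlapped. The difference was -0.10 ± 0.06 (95% interval -0.23 to 0.025, limma unadjusted p = 0.101, exact permutation p = 0.2). Within same-numbered pools it was -0.12, -0.073 and -0.11 for numbers 1, 2 and 3. Once replicate number entered the fit as a block, the SE was 0.035 and the unadjusted p 0.0264, which did not pass over all genes (limma adjusted p = 0.674). In that blocked fit 7.25% of all genes had an unadjusted p under 0.05. The value depended on single pools, at -0.062 without narrow 1 and -0.14 without narrow 2.

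Tfap2c, the AP-2 gamma factor of trophoblast stem cells and of later lineages, was the 1 member whose groups did not overlap. Its signals were 11.62, 11.73 and 11.62 in narrow pools, against 11.55, 11.53 and 11.59 in wide pools. All narrow pools lay above all wide pools, which also held for 4.17% of all genes, and 7.70% of all genes were without overlap in either direction. Mean signals were 11.65 ± 0.06 in narrow and 11.56 ± 0.03 in wide pools (SD, n = 3 each). The difference was 0.093 ± 0.047, or 1.07-fold, with a 95% interval from -0.015 to 0.20 (limma unadjusted p = 0.0831). An exact permutation test of 3 against 3 gave p = 0.1, the smallest it can give. Without narrow 2 the difference was 0.056.

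Sox21, an SRY-related factor of the extraembryonic ectoderm, varied in a single pool. It read 9.74, 9.97 and 9.97 in narrow pools 1, 2 and 3, against 9.91, 9.93 and 9.89 in wide pools. Narrow 1 was the lowest of the 6 and the other narrow pools were the highest 2. The difference was -0.019 ± 0.067 (95% interval -0.17 to 0.13), and without narrow 1 its sign turned, to 0.059. Ets2, an ETS factor needed in the trophoblast, read 12.01, 12.01 and 11.93 in narrow pools, against 12.06, 12.05 and 11.97 in wide pools. Its groups overlapped, with narrow 3 the lowest, and the difference was -0.042 ± 0.046 (95% interval -0.15 to 0.064). It was -0.015 without narrow 3 and -0.070 without wide 3.

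Ascl2, an imprinted bHLH gene expressed from the maternal copy and needed for the spongiotrophoblast, had the largest difference among the members and also the least certain one. Its signals were 9.83, 10.09 and 9.97 in narrow pools 1, 2 and 3, against 9.89, 9.46 and 9.90 in wide pools 1, 2 and 3. Wide 2 stood far below the other 5 pools, and narrow 1 lay below wide 1 and wide 3. The mean was 9.96 ± 0.13 in narrow and 9.75 ± 0.25 in wide pools (SD, n = 3 each), a difference of 0.21 ± 0.12 with a 95% interval from -0.064 to 0.49 (limma unadjusted p = 0.115). Without wide 2 the difference was 0.068 ± 0.078 (limma unadjusted p = 0.408), and with the arrays numbered 2 and 3 alone it was 0.35 ± 0.14. Over the 6 pools Ascl2 had a range of 0.63, at the 99.5th percentile of all genes, while the 7 others spanned 0.10 to 0.24 and the median gene 0.18. Wide 2 was not low throughout: among the wide pools it was the highest in Elf5, Cdx2 and Sox21 and the lowest in Tfap2c and Plac1.

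Hand1, a bHLH factor of giant cells, read 12.37, 12.48 and 12.43 in narrow pools, against 12.35, 12.40 and 12.43 in wide pools. The groups overlapped, and the difference was 0.035 ± 0.047 (95% interval -0.072 to 0.14) and 0.0071 without narrow 2. Plac1 read 12.16, 12.00 and 12.01 in narrow pools 1, 2 and 3, against 12.06, 11.95 and 12.04 in wide pools. Its highest pool was narrow 1 and its lowest wide 2, with a difference of 0.037 ± 0.057 (95% interval -0.094 to 0.17), which turned to -0.014 without narrow 1.

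**Figure D2:**
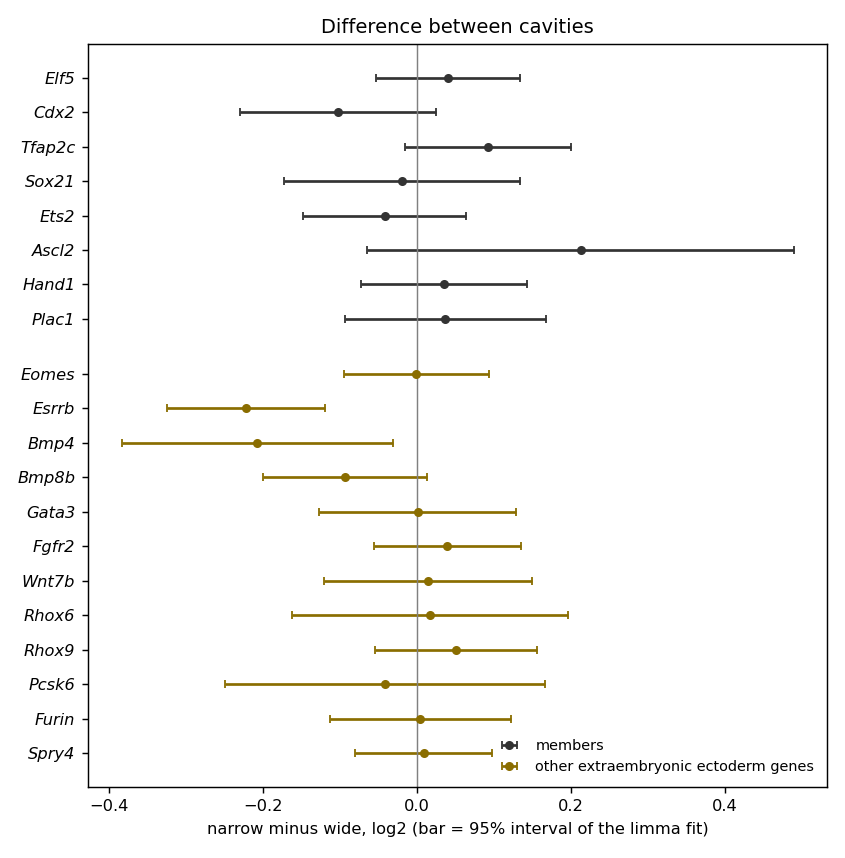
Narrow minus wide difference on the log2 scale (horizontal axis) with the 95% interval of the limma fit for the 8 members (dark, above) and 12 other extraembryonic ectoderm genes (ochre, below). Every member's interval spans 0, and Ascl2 has the widest one (-0.064 to 0.49).

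Same-numbered pools were set against each other as well. The difference had 1 sign in all 3 pairs for 5 of the 8 members (Elf5, Tfap2c and Hand1 positive, Cdx2 and Ets2 negative), against 28.7% of all genes. The members share the same 6 pools, so this count carries no test. The pair values of Ets2 were the closest to each other, at -0.047, -0.040 and -0.040 for numbers 1, 2 and 3. Elf5 gave 0.039, 0.068 and 0.014, and Tfap2c gave 0.064, 0.19 and 0.021. These pairs include both arrays numbered 1. The mean of those arrays minus the mean of the other 4 was -0.12 for Sox21, -0.11 for Cdx2, -0.077 for Hand1 and 0.11 for Plac1. This offset exceeded the difference between cavities, in size, for 5 of the 8 members and for 66.4% of all genes.

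**Figure D3:**
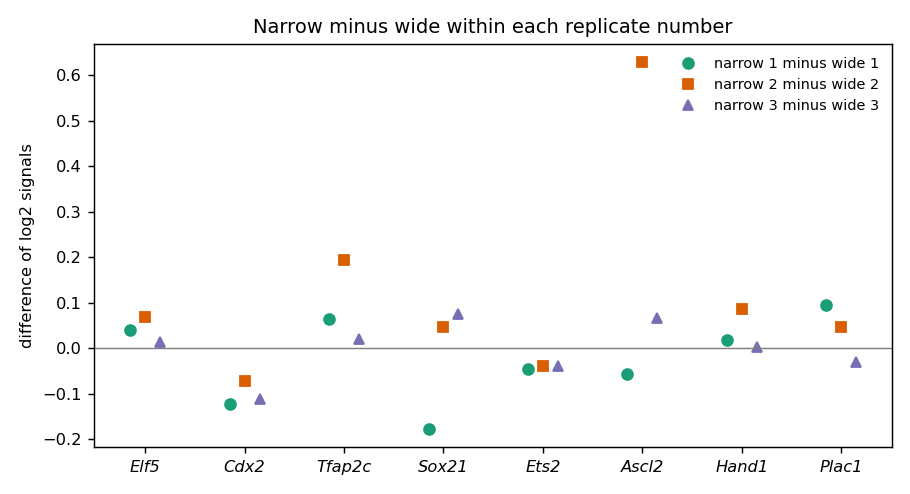
Difference of log2 signals, narrow minus wide, within each replicate number (vertical axis) for the 8 members (horizontal axis). Cdx2 and Ets2 are below 0 in all 3 pairs, Elf5, Tfap2c and Hand1 above 0 in all 3, and Ascl2 reaches 0.63 in pair 2.

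Other extraembryonic ectoderm genes did not pass between cavities. Of 13 genes listed, 12 were measured, 0 passed the adjusted threshold in either direction and their median difference was 0.0026, which ran from -0.033 without wide 1 to 0.036 without narrow 1. Eomes, the T-box factor that acts with Elf5 and Cdx2, differed by -0.00074 ± 0.041 and Gata3, a GATA factor of the trophectoderm, by 0.00079 ± 0.056. The FGF receptor gene Fgfr2, through which the epiblast keeps these cells dividing, differed by 0.039 ± 0.041, the Wnt ligand gene Wnt7b by 0.015 ± 0.059 and the ERK feedback gene Spry4 by 0.0087 ± 0.039. The X-linked homeobox genes Rhox6 and Rhox9 differed by 0.017 ± 0.078 and 0.051 ± 0.045, and the proprotein convertase genes Pcsk6 and Furin by -0.042 ± 0.090 and 0.0043 ± 0.051.

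Esrrb, a nuclear receptor used by trophoblast stem cells and by naive pluripotent cells, read 10.21, 10.26 and 10.18 in narrow pools, against 10.48, 10.44 and 10.39 in wide pools. Bmp4, the ligand sent from the extraembryonic ectoderm to the epiblast, read 11.68, 11.70 and 11.48 in narrow pools, against 11.87, 11.91 and 11.70 in wide pools. Bmp8b, a ligand from the same tissue, read 11.85, 11.84 and 11.76 in narrow pools, against 11.96, 11.90 and 11.86 in wide pools. For each of these genes all narrow pools lay below all wide pools, as for 3.54% of all genes. Esrrb and Bmp4 were the 2 of 12 at an unadjusted p under 0.05 with the lower value in narrow pools (1.72% of all genes). The list was chosen with earlier results of these data known, and its genes share the same pools. These counts therefore carry no test. The limma unadjusted p was 0.00107 for Esrrb and 0.0265 for Bmp4, and neither passed over all genes. With the replicate block, limma gave an unadjusted p of 0.00107, 0.000973 and 0.0363 for Esrrb, Bmp4 and Bmp8b. None of these passed over all genes (limma adjusted p = 0.630, 0.630 and 0.678), and 7.25% of all genes had an unadjusted p under 0.05 in that fit. The differences were -0.22 ± 0.04 for Esrrb, -0.21 ± 0.08 for Bmp4 and -0.094 ± 0.046 for Bmp8b. Whether the members differed from these genes was not tested.

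Markers of later trophoblast were partly near background. Of 11 ectoplacental cone and giant cell genes, 8 were measured and 0 passed in either direction. A mean signal above the 95th percentile of the olfactory receptor genes (6.79) was found for 6 of these 8, and for 14109 of all 19938 genes. Tpbpa, a marker of the spongiotrophoblast, and Ctsq, a cathepsin of later giant cells, lay above 28.5% and 21.8% of the olfactory receptor genes, so values of these 2 cannot be told from background. The list had a median difference of 0.069 (0.037 without wide 2), with 7 of 8 values positive, against 10157 of all 19938 genes. Tpbpa and Ctsq are among the positive values, and the genes share the same 6 pools, so this count carries no test. Flt1, a VEGF receptor, differed by 0.10 ± 0.05, and Cts7, a placental cathepsin, by 0.41 ± 0.24. Cts7 read 8.03, 8.35 and 8.34 in narrow pools, against 7.60, 8.46 and 7.44 in wide pools, so that wide 2, the pool lowest in Ascl2, was the highest in Cts7. Of 9 genes of the labyrinth and syncytiotrophoblast, all measured, 0 passed and the median was 0.014 (-0.014 without narrow 2). The connexin gene Gjb2 differed by -0.19 ± 0.10 and the transcription factor gene Tfeb by 0.11 ± 0.07.

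Signals known to act on trophoblast stem cells did not pass either. Of 18 genes of the FGF, Nodal and YAP inputs, 15 were measured, 0 passed in either direction and 14 differences lay within 0.1 of 0, as did 17981 of all 19938 genes. The median was 0.0043 (-0.019 without narrow 2). Smad3, a transducer of Nodal signals, had the smallest p, at a difference of 0.11 ± 0.05, followed by the receptor gene Fgfr2 given above. The ligands Fgf4 and Nodal, both made by the epiblast, differed by -0.047 ± 0.058 and -0.039 ± 0.060, and Yap1 and Tead4, which switch on Cdx2 in the blastocyst, by -0.012 ± 0.039 and -0.033 ± 0.051; these 4 were chosen for their role after their values were seen. Among 21 family relatives of the members, 19 were measured, 0 passed and the median was -0.0089. The relatives with the smallest p were Sox14 (-0.11 ± 0.05) and Sox2 (-0.095 ± 0.047), a factor shared by epiblast and extraembryonic ectoderm.

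**Figure D4:**
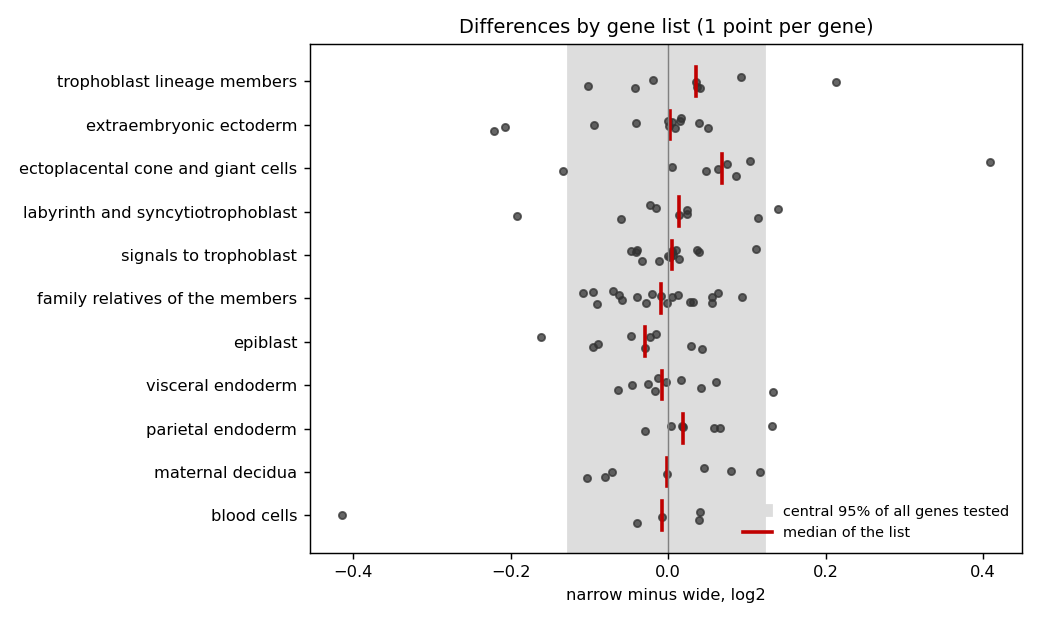
Narrow minus wide differences on the log2 scale (horizontal axis), 1 point per gene, for the members and 10 lists of other genes, with the median of each list in red and the central 95% of all genes (-0.128 to 0.123) in grey. The members' median is 0.036 and 1 member, Ascl2, lies outside the grey band.

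Markers of the other tissues in a whole embryo did not pass. The median difference was -0.030 for 9 epiblast genes, -0.0077 for 10 visceral endoderm genes and 0.018 for 7 parietal endoderm genes, with 0 past the threshold in each. The mean log2 signal of the epiblast list was 11.17 to 11.24 in narrow and 11.23 to 11.29 in wide pools, that of the visceral endoderm list 11.68 to 11.73 in narrow and 11.66 to 11.71 in wide pools, and that of the members 11.25 to 11.35 in narrow and 11.23 to 11.29 in wide pools. Nanog (-0.16 ± 0.09) and Sox2 had the smallest p in the epiblast list, Foxa2 (0.13 ± 0.06) and Hnf4a (-0.064 ± 0.040) in the visceral endoderm list, and Thbd (0.13 ± 0.06) and Snai1 (0.058 ± 0.046) in the parietal endoderm list. The decidua and blood lists, which could mark maternal tissue, had 5 of 7 and 3 of 5 measured genes above the 6.79 bound, against 14109 of all 19938 genes. Their medians were -0.0016 and -0.0084. Hoxa11 (0.080 ± 0.051) and Hoxa10 (-0.072 ± 0.051) had the smallest p among decidua genes, and Lyz2 (-0.41 ± 0.32) and Csf1r (0.039 ± 0.042) among blood genes. The decidual prolactin gene Prl8a2 and the leukocyte gene Ptprc lay above 72.2% and 82.0% of olfactory receptor genes. Hoxa11 and Lyz2 lay above 89.1% and 89.7% of them. All of these genes were below the 6.79 bound, so their differences are limited by background. Lyz2 read 7.50 in wide 3, against 6.05 to 6.58 in the other pools, so its difference rests largely on that pool. The part of these tissues in the members' values was not tested.

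The genes whose profile over the 6 arrays was most like the mean of the 8 members were Slc2a2, a glucose transporter gene, Gm10390, and F2rl2, a protease-activated receptor gene. Their Pearson correlations with that mean were 0.991, 0.989 and 0.984 over the 6 arrays, as a description, and 46 of 3892 genes with an SD of at least 0.1 exceeded 0.9. The members' mean, each gene centred on its own average, was -0.028, 0.070 and 0.0053 in narrow pools 1, 2 and 3, against -0.0045, -0.049 and 0.0059 in wide pools 1, 2 and 3. Narrow 2 and wide 2 were thus its extremes, and Ascl2, at 10.09 and 9.46, deviated furthest from its own mean (9.86) in both. The genes were not scaled, so the low value of wide 2 rests largely on Ascl2. Cdx2 (10.75, mean 10.64), Ets2 (12.05, mean 12.01) and Sox21 (9.93, mean 9.90) lay above their means in wide 2. Elf5, Tfap2c, Hand1 and Plac1 lay below theirs. The correlations therefore do not describe a profile shared by all members.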

How the data were processed

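RNA of 6 pools of embryos was measured on Affymetrix arrays after biotin labelling, per the labels' protocols. The deposited values are log2 signals, 1 per array row, made by the authors; the log2 scale was read from their range (4.33 to 14.3). Background correction, normalization, software and build were not given in the sources used here. Array medians were nearly equal, and the values were used without further scaling; any scaling between arrays before deposit would remove changes in total RNA. Of 28853 rows, 21789 named 1 gene in the platform annotation, giving 19938 genes. Narrow minus wide was fitted with limma 3.58.1 in R 4.3.3 (lmFit, eBayes, two-sided, 6 arrays, no covariate, no filter). The fit was first run on simulated data without an offset between replicate numbers. The differences planted there were larger than that of any member, so the run does not describe detection of differences of the members' size. The design text calls the samples biological replicates, so a p-value sets the difference against the spread between pools. In that spread eBayes draws the variance of each gene toward a value shared by all genes. The number of arrays limits the precision.

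Members and lists were chosen with earlier results of these data known. Named were all members and extraembryonic ectoderm genes, from each other list the 2 with the smallest p, and the 3 genes most alike in profile; others (Tpbpa, Ctsq, Fgf4, Nodal, Yap1, Tead4, Prl8a2 and Ptprc) were chosen after their values were seen. Deviations from group means correlated at 0.516, 0.176 and 0.272 between arrays numbered 1, 2 and 3, all above 0.1. Pools of 1 number were therefore also compared as pairs and in a blocked fit, although no label explains the numbers. The main fit used no pairing, and it gave the SEs, intervals and p-values unless another fit is named. Narrow 2 with wide 3 gave 0.178, slightly above the 0.176 of the pair numbered 2. Alternatives were the block, quantile or median scaling, 2 filters on dim genes, averaged rows, every row, a trended robust fit, each array left out and the 4 arrays numbered 2 and 3. Promoter windows came from RefSeq (GRCm38.p6); the array's build is unknown, so array positions were not used.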

Additional observations from a re-analysis of the deposited data

How the results depend on the processing

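Across 15 alternatives limma passed 0 genes, 0 of 120 member values were called, and 117 kept their sign. Sox21 turned from -0.019 to 0.060 with the arrays numbered 2 and 3 and to 0.059 without narrow 1. Plac1 turned from 0.037 to -0.014 without narrow 1. Both signs rest on that pool. Plac1 also fell to 0.0031 without wide 2 and to 0.0081 with the arrays numbered 2 and 3. The 678 genes at an unadjusted p under 0.05 became 1446 with the replicate block and 384 among genes above the median signal, where 9969 were tested, and ran from 497 to 990 in the fits that each lack 1 array. The block passed 0 genes (smallest adjusted p = 0.0838) and changed no call. When each array was left out, Elf5 ranged from 0.019 to 0.053, Cdx2 from -0.14 to -0.062, Tfap2c from 0.056 to 0.11, Sox21 from -0.060 to 0.059, Ets2 from -0.070 to -0.015, Ascl2 from 0.068 to 0.29, Hand1 from 0.0071 to 0.065 and Plac1 from -0.014 to 0.065. The members' median ran from 0.013 to 0.054 over all alternatives. A trended robust fit gave Tfap2c an unadjusted p of 0.0364 (limma adjusted p = 1.00). The decidua list's median of -0.0016 became 0.12 above the median signal, where 1 gene was left, -0.030 with the arrays numbered 2 and 3, and ran from -0.034 to 0.037 over the fits that each lack 1 array. Of the other lists, the medians turned sign under at least 1 alternative for extraembryonic ectoderm (-0.033 to 0.036), trophoblast signals (-0.019 to 0.025), labyrinth (-0.014 to 0.031), family relatives (-0.029 to 0.0076), visceral endoderm (-0.021 to 0.010) and blood (-0.029 to 0.040), and kept it for the ectoplacental cone (0.037 to 0.096), epiblast (-0.053 to -0.015) and parietal endoderm (0.0063 to 0.040). Dim genes are limited by background, for which the sources used here gave no measure.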
